A study of Mus musculus with 12 samples.

Results

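Tetrahydrobiopterin is the cofactor that nitric oxide synthases and the aromatic amino acid hydroxylases need. It is made from GTP by GTP cyclohydrolase (Gch1), pyruvoyl-tetrahydropterin synthase (Pts) and sepiapterin reductase (Spr), and its oxidised form is returned to use by dihydropteridine reductase (Qdpr). The small protein encoded by Gchfr binds GTP cyclohydrolase and mediates its feedback inhibition by the cofactor. Nitric oxide acts through soluble guanylate cyclase, a dimer of the Gucy1a1 and Gucy1b1 products, whose product cGMP is read by the protein kinases PKG1 (Prkg1) and PKG2 (Prkg2) and broken down by phosphodiesterases such as Pde5a. In endothelium this chain is known for its part in vessel tone.

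These 10 genes were followed through 12 libraries of ISOS-1, a cell line from a mouse angiosarcoma, genotype WT in the labels. They were taken by symbol from 55359 gene identifiers, and each symbol stood in 1 row. The list was chosen by pathway membership with earlier results of these data in view, where the level of Gchfr already stood among the leading ones. The change of Prkg2 with JQ1 ranked 11 among the changes towards lower levels, over 7746 genes with a mean of at least 5 TPM, and may have been in view as well. Both are therefore given as a description with no test. The groups, of 3 libraries each, received SAHA (vorinostat, a hydroxamate inhibitor of histone deacetylases) at 1 µM for 24 h, VPA (valproic acid, a fatty acid that also inhibits histone deacetylases) at 2 mM for 36 h, JQ1 (a compound that blocks the acetyl-lysine pockets of BET proteins) at 1 µM for 36 h, or DMSO, the solvent control. All cells grew in serum-containing DMEM, and the labels used here state no exposure time for DMSO. Nothing in them tells whether the 3 libraries of a group came from separate cultures, so the p-values here reflect the spread among libraries, which may be technical. Only 3′ ends of mRNA were sequenced, and levels are the authors' TPM, a length-scaled abundance that hides the depth of each library.

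The libraries listed 13735 to 14799 genes above 0 TPM. Mitochondrially encoded genes took 14.3 to 15.3% of the TPM in JQ1 libraries, 11.02 to 11.7% in SAHA, 11.9 to 12.4% in VPA and 11.1 to 11.2% in DMSO. The labels call these cells endothelial. Of 13 blood endothelial markers, 4 (Cdh5, Vwf, Cldn5 and Erg) were listed at 0 in all 12 libraries and 3 reached 1 TPM anywhere. Those 3 were Cd34 (51.84 to 204.4 TPM), Egfl7 (2.24 to 15.6 TPM) and Pecam1 (at most 1.01 TPM). In bulk RNA, fewer cells of a type and less RNA per cell cannot be told apart.

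Of the 10 genes, 6 passed the filter of at least 1 TPM in at least 3 libraries: Gchfr, Gch1, Pts, Spr, Qdpr and Prkg2. Prkg1, Gucy1a1 and Gucy1b1 were listed at 0 in all 12 libraries. Pde5a was listed at 0.21, 0.16 and 0.1 TPM in the VPA libraries and at 0 in the other 9. The cGMP arm of the list thus held 1 measurable gene, the kinase Prkg2, while all 5 genes of the tetrahydrobiopterin arm were measured.

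The promoters of the tetrahydrobiopterin genes whose levels differed between groups are shown first. Gch1 and Pts were higher with JQ1 and Qdpr with VPA in the tests below, and Gchfr was higher with SAHA and VPA by description. These genes do not part cleanly by drug. Gch1 lay above every DMSO library in every drug-treated library, and the Pts result did not hold without some single libraries. Each window runs from 250 bases before to 50 bases after the annotated start and comes from RefSeq on GRCm38.p6, an older build than the mm39 named in the submitters' processing notes. Capitals mark matches, on either strand, to the GC box GGGCGG, the CCAAT box CCAAT, the cAMP-response half-site TGACG and the TATA box TATAAA, and in these windows no 2 motifs shared a letter. The windows of Gchfr (chr2:119167538-119167837, plus strand), Gch1 (chr14:47189364-47189663, minus strand), Pts (chr9:50528607-50528906, minus strand) and Qdpr (chr5:45450180-45450479, minus strand) read 5′ to 3′ as follows.
Gchfr: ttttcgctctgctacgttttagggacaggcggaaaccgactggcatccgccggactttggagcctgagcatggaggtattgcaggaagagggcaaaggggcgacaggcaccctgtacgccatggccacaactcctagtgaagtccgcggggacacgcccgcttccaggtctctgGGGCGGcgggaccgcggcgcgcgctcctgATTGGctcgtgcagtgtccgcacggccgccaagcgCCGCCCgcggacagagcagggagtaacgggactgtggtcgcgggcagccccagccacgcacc
Gch1: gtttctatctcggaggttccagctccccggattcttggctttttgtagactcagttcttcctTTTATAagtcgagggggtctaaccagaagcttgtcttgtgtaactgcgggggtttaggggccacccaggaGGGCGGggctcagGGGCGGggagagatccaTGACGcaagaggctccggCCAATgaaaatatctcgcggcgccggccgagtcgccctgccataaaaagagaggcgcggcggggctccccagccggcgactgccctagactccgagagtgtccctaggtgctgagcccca
Pts: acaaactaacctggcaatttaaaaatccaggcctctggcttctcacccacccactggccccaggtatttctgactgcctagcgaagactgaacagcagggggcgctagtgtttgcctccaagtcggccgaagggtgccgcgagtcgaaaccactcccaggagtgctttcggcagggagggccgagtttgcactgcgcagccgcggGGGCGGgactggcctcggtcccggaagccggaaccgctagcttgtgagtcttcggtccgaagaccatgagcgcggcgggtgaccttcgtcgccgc
Qdpr: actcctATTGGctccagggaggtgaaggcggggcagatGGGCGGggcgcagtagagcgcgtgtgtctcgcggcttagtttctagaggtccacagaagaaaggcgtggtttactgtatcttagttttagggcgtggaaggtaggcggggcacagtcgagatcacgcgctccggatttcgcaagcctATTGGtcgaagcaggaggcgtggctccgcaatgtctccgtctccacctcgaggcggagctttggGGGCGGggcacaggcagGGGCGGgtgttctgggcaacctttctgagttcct

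The Gchfr window held 31 CpG dinucleotides and 67% G or C, against medians of 7 CpG and 52.7% over 32851 windows of the same length. Those of Gch1, Pts and Qdpr held 20, 25 and 23 CpG. GC boxes numbered 2 in the Gchfr window, 2 in Gch1, 1 in Pts and 3 in Qdpr. A GC box stood in 35.7% of all windows, so a match in each of these 4 is a description of CpG-rich promoters and not a site or a cause. Only the Gch1 window of the 4 held the TGACG half-site (20.8% of all windows) and TATAAA (13.6%). The TATAAA match lay on the opposite strand, its first base at -188 from the annotated start, and is a match of letters, not shown to be a working TATA box. A CCAAT box (37.4%) was found in Gchfr, Gch1 and Qdpr. Windows were matched for 9 of the 10 genes, all but Prkg2. A GC box was not particular to the 4 genes shown. At least 1 window of Spr, which had no call, and of Prkg1, Gucy1a1, Gucy1b1 and Pde5a, which did not pass the filter, held one too. The windows of these other genes held from 6 CpG (Gucy1b1) to 23 (Pde5a).

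Gchfr, the feedback regulator, was the member whose level was highest with the deacetylase inhibitors relative to DMSO. It stood at 101.9, 121.66 and 118.19 TPM in SAHA libraries, at 47.25, 51.86 and 70.02 TPM in VPA, at 20.94, 7.76 and 14.22 TPM in JQ1 and at 26.25, 20.28 and 23.88 TPM in DMSO. Every SAHA library lay above every VPA library, and every VPA library above every DMSO library, while the highest JQ1 library fell inside the DMSO range. The means were 114 ± 10.6 TPM with SAHA, 56.4 ± 12.04 with VPA, 14.3 ± 6.59 with JQ1 and 23.5 ± 3.01 with DMSO (SD, n = 3 each). Relative to DMSO the mean was 4.85-fold higher with SAHA and 2.40-fold higher with VPA (log2 changes of TPM + 1 of 2.23 and 1.22), and with JQ1 the log2 change was -0.77. The SAHA mean was 2.02 times the VPA mean, with dose and time unlike in the 2 treatments.

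**Figure D1:**
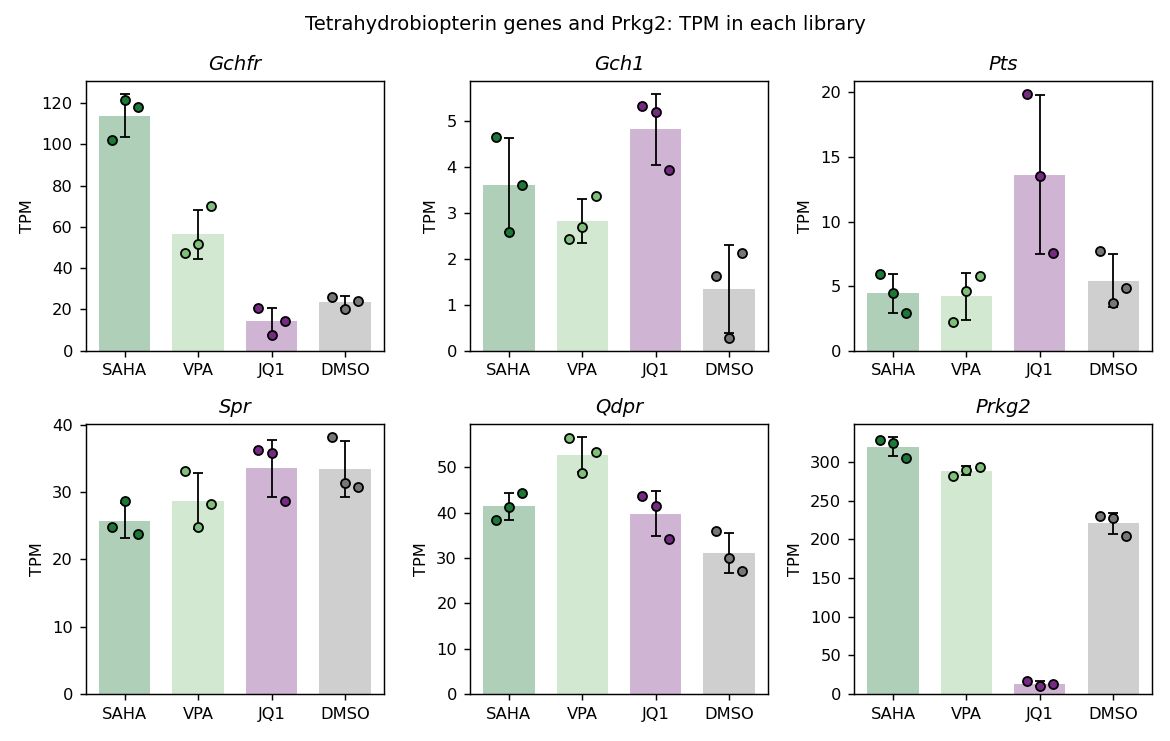
TPM (linear axes from 0) of the 6 genes that passed the filter, by group: bars are means of 3 libraries, error bars are SDs and points are libraries. Gchfr is highest with SAHA, Prkg2 is at 10.18 to 16.65 TPM with JQ1 and between 204.71 and 329.38 TPM in the other 9 libraries, and Gch1 and Pts have their highest means with JQ1.

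Gch1, the entry enzyme that the Gchfr protein restrains, was scarce in all groups. It had 4.65, 2.59 and 3.6 TPM with SAHA, 2.43, 2.69 and 3.37 with VPA, 5.34, 5.19 and 3.93 with JQ1 and 1.62, 0.27 and 2.13 with DMSO. Every drug-treated library was above every DMSO library. In limma's moderated test over 12836 genes, Gch1 rose with JQ1 (4.82 ± 0.774 TPM with JQ1 against 1.34 ± 0.961 TPM with DMSO, log2 change 1.41, SE 0.326, adjusted p = 0.00624), and it kept this call in all 22 alternatives that retained the gene. With SAHA the log2 change was 1.05 (95% interval 0.34 to 1.77, adjusted p = 0.0962) and with VPA 0.80 (0.09 to 1.52, adjusted p = 0.219), neither past the threshold of 0.05.

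Pts, which makes the pyruvoyl intermediate, had 5.93, 4.46 and 2.93 TPM in SAHA libraries, 2.25, 4.6 and 5.77 in VPA, 19.88, 13.5 and 7.53 in JQ1 and 7.71, 3.72 and 4.85 in DMSO. The JQ1 libraries were widely spread, and the lowest of them lay below the highest DMSO library. Pts rose with JQ1 (13.6 ± 6.18 TPM with JQ1 against 5.43 ± 2.06 TPM with DMSO, log2 change 1.14, SE 0.388, adjusted p = 0.0412). This call ended without SAHA replicate 2, VPA replicate 2, JQ1 replicate 1 or 2, or DMSO replicate 2 or 3 (highest adjusted p 0.154, without JQ1 replicate 1), and it ended with the replicate number as a block (adjusted p = 0.0556). The log2 change was -0.23 with SAHA (95% interval -1.08 to 0.62, adjusted p = 0.805) and -0.32 with VPA (-1.17 to 0.53, adjusted p = 0.721).

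Spr, the reductase of the last step, had no change past the threshold. It had 24.81, 28.64 and 23.72 TPM with SAHA, 33.15, 24.86 and 28.18 with VPA, 36.21, 35.79 and 28.64 with JQ1 and 38.17, 31.4 and 30.76 with DMSO. The SAHA libraries all lay below the DMSO libraries, and the other groups overlapped DMSO. The log2 change was -0.36 with SAHA (95% interval -0.68 to -0.04, adjusted p = 0.196), -0.22 with VPA (-0.54 to 0.11, adjusted p = 0.486) and 0.0032 with JQ1 (-0.32 to 0.32, adjusted p = 0.995).

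Qdpr, which recycles the cofactor, rose with VPA. Its values were 38.47, 41.3 and 44.29 TPM with SAHA, 56.39, 48.73 and 53.31 with VPA, 43.68, 41.46 and 34.17 with JQ1 and 35.94, 30 and 27.2 with DMSO. All VPA and SAHA libraries stood above the DMSO libraries, whereas 1 JQ1 library fell within the DMSO range. The mean was 52.8 ± 3.85 TPM with VPA against 31.0 ± 4.46 with DMSO (1.70-fold, log2 change 0.75, SE 0.129, adjusted p = 0.00901), a call kept in all 23 alternatives. With SAHA the log2 change was 0.41 (95% interval 0.13 to 0.69, adjusted p = 0.102). With JQ1 it was 0.35 (0.07 to 0.63, adjusted p = 0.058), and it passed without JQ1 replicate 3 (adjusted p = 0.0271) or DMSO replicate 1 (0.0252), with a filter at 5 TPM (0.0452) and under the 3 other scalings (0.0120 to 0.0334).

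Prkg2, which encodes the membrane-anchored cGMP-dependent kinase PKG2, was the most abundant of the 10 genes in DMSO and the lowest relative to DMSO with JQ1. It stood at 16.65, 10.18 and 12.77 TPM in the JQ1 libraries, against 230.28, 227.39 and 204.71 TPM in DMSO. The JQ1 mean of 13.2 ± 3.26 TPM was 16.7-fold lower than the DMSO mean of 221 ± 14.0 (log2 change -3.99) and 21.9-fold lower than the VPA mean of 289 ± 6.05, which had the same 36 h of exposure. Without any 1 library the log2 change against DMSO lay between -4.16 and -3.83.

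With the deacetylase inhibitors Prkg2 was at 329.38, 324.94 and 305.8 TPM (SAHA) and at 282.35, 290.24 and 294.23 TPM (VPA), all above the DMSO libraries. It rose with SAHA (320 ± 12.5 TPM with SAHA against 221 ± 14.0 TPM with DMSO, log2 change 0.53, SE 0.132, adjusted p = 0.041). That call ended without any SAHA, VPA or DMSO replicate or JQ1 replicate 3 (adjusted p up to 0.129, without DMSO replicate 3), and it ended with the replicate number as a block (0.0563). With VPA the log2 change was 0.39 (95% interval 0.10 to 0.68, adjusted p = 0.138), which passed without JQ1 replicate 1 (0.0362) or 2 (0.0481) and in a fit of the 2 groups alone (0.0411).

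**Figure D2:**
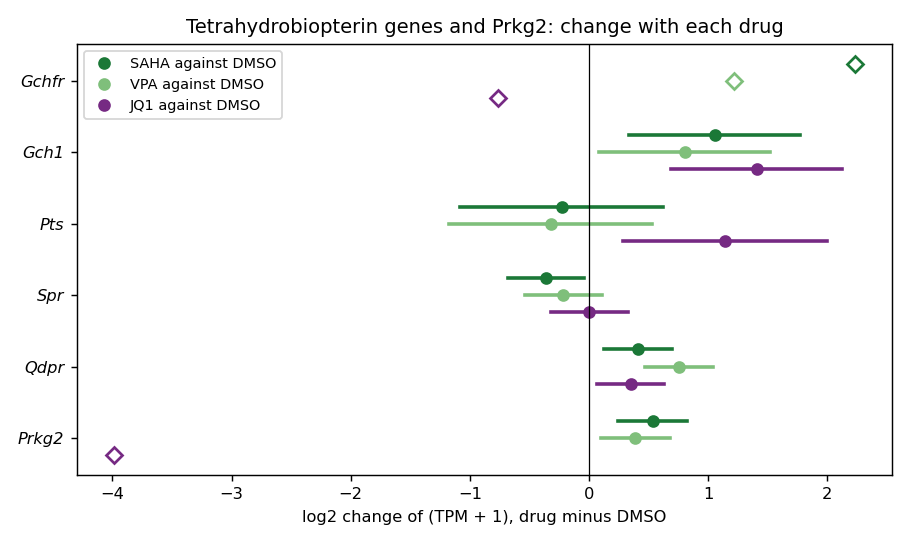
Log2 change of TPM + 1, drug minus DMSO, for the 6 measured genes: filled points are estimates with 95% intervals from limma, and open diamonds are the changes given without a test. Prkg2 with JQ1 lies at -3.99, Gchfr lies at 2.23 with SAHA and 1.22 with VPA, and the changes of the other genes lie between -0.36 and 1.41.

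Leaving out Gchfr, 5 measured members entered the comparisons of SAHA and VPA with DMSO and with each other, and 4 those with JQ1, where Prkg2 was left out too. With SAHA, 1 of 5 rose (Prkg2) and 0 fell, where 5.19% of all tested genes were called, 3.09% higher and 2.10% lower. With VPA, 1 of 5 rose (Qdpr) and 0 fell, where 4.27% were called, 2.95% higher and 1.32% lower. With JQ1, 2 of 4 rose (Gch1 and Pts) and 0 fell, where 33.9% were called, 12.9% higher and 21.0% lower. The members left out there, Prkg2 and Gchfr, were the only measured ones with a negative log2 change with JQ1 (-3.99 and -0.77). Neither the count of 0 nor the JQ1 median below covers them, so no upward shift of the 10 genes is read from either. With so few members, these counts are not read as a share. The median log2 change of these members was 0.41 with SAHA, 0.39 with VPA and 0.75 with JQ1, beside medians over all tested genes of 0.01, 0.06 and -0.07. The 3 comparisons share the DMSO libraries.

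SAHA against VPA, the comparison of the 2 deacetylase inhibitors as they were given, had 0 of 5 members past limma's threshold, 1 of 5 (Qdpr) at an unadjusted p under 0.05 and 0.452% of all genes called, 0.265% higher and 0.187% lower. Qdpr stood at 41.4 ± 2.91 TPM with SAHA and 52.8 ± 3.85 with VPA, without overlap of the libraries (log2 change -0.35, 95% interval -0.63 to -0.06, adjusted p = 0.341). For Prkg2 the log2 change was 0.15 (95% interval -0.14 to 0.44, adjusted p = 0.729), and for Gch1 it was 0.25 (-0.47 to 0.97, adjusted p = 0.825). These intervals do not show that the drugs act alike.

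JQ1 against VPA, both given for 36 h, had 1 of 4 members higher and 1 lower, with 33.2% of all genes called, 10.3% higher and 22.9% lower. Over all tested genes the median log2 change was -0.14 here, and median-of-ratios scaling moved it to 0.0045. Pts rose (13.6 ± 6.18 TPM with JQ1 against 4.21 ± 1.79 with VPA, log2 change 1.46, SE 0.388, adjusted p = 0.0129), a call that ended without JQ1 replicate 1 (0.0557) or VPA replicate 1 (0.0529). Qdpr fell (39.8 ± 4.98 TPM with JQ1 against 52.8 ± 3.85 with VPA, log2 change -0.41, SE 0.129, adjusted p = 0.0315). The Qdpr call ended without JQ1 replicate 2 (0.0501) or 3 (0.119) or VPA replicate 1 (0.1) or 3 (0.0764), and under quantile normalization (0.237), median-of-ratios scaling (0.234) or removal of mitochondrial genes and Rn18s (0.0623). Gch1 (log2 change 0.60, 95% interval -0.11 to 1.32, adjusted p = 0.186) and Spr (0.22, -0.10 to 0.54, adjusted p = 0.287) did not pass.

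On the per-length TPM scale, the order of levels differed between groups. In DMSO it ran Prkg2, Spr, Qdpr, Gchfr, Pts and Gch1, and of these neighbours only Spr and Qdpr overlapped in their libraries. With SAHA the order was Prkg2, Gchfr, Qdpr, Spr, Pts and Gch1, with overlap between Pts and Gch1 alone. With VPA it was the same, with overlap of Gchfr with Qdpr and of Pts with Gch1. With JQ1 it ran Qdpr, Spr, Gchfr, Pts, Prkg2 and Gch1, where Qdpr and Spr overlapped, as did Gchfr with Pts and Pts with Prkg2. Since 3′ tags do not scale with transcript length, levels of short and long genes compare poorly in this unit.

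The wider pathway was read from a list of 78 symbols written by role, with 77 rows in the matrix (Mrvi1, an older symbol of Irag1, had none) and 32 genes past the filter. Among genes that need tetrahydrobiopterin, Nos2 and the hydroxylase genes Th and Tph1 were listed at 0 in all 12 libraries. The highest library had 0.2 TPM of the endothelial synthase Nos3, 0.07 of Nos1, 0.29 of Tph2 and 0.35 of Agmo, an ether lipid monooxygenase. Of 13 other guanylate cyclase and natriuretic peptide genes, 2 passed the filter, both for natriuretic peptide receptors: Npr2, which makes cGMP itself, and Npr3, which clears the peptides. Of 17 genes of phosphodiesterases and cyclic nucleotide efflux, 4 passed.

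With JQ1, 8 of the 32 genes rose and 8 fell against DMSO, 50% beside 33.9% of all genes, with a list median of 0.05. Of the 5 genes of cofactor recycling and use 2 rose and 1 fell, of the 4 genes of GTP supply 0 rose and 2 fell, and of the 2 natriuretic peptide receptors 0 were called by limma, nor any at an unadjusted p under 0.05. Around the cofactor, Akr1b3, an aldose reductase, rose (644 ± 19.6 TPM with JQ1 against 491 ± 22.3 TPM with DMSO, adjusted p = 0.00519), as did Pcbd2, a pterin dehydratase (45.1 ± 2.77 TPM with JQ1 against 33.0 ± 6.75 TPM with DMSO, adjusted p = 0.0369). The Pcbd2 call ended without any JQ1 replicate or DMSO replicate 1 or 3 (highest adjusted p 0.14, without DMSO replicate 1), and with the replicate number as a block (0.065).

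Of the 8 measured genes of arginine supply and nitric oxide synthase control, 2 rose and 3 fell with JQ1. Over all tested genes 12.9% were called higher and 21.0% lower, and counts in so few genes are not read as a share. Cav1, which encodes caveolin-1, an inhibitor of the endothelial synthase, fell (7.72, 5.24 and 7.94 TPM with JQ1 against 26.41, 29.22 and 25.48 with DMSO, log2 change -1.83, adjusted p = 2.6e-06). Ddah1, which degrades the inhibitor dimethylarginine, fell (9.88, 13.31 and 9.66 TPM with JQ1 against 35.44, 37.53 and 32.73 with DMSO, log2 change -1.61, adjusted p = 3.22e-06), while its relative Ddah2 rose (31.3 ± 1.46 TPM with JQ1 against 17.2 ± 4.41 TPM with DMSO, adjusted p = 0.00175). Ass1, which makes argininosuccinate on the way to arginine, fell (4.64 ± 0.688 TPM with JQ1 against 12.8 ± 3.04 TPM with DMSO, adjusted p = 0.00055).

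Of the 9 effectors and substrates that passed the filter, 3 rose and 2 fell with JQ1. Of the 4 genes of phosphodiesterases and efflux, 1 rose and 0 fell. These counts too stand beside 12.9% higher and 21.0% lower over all tested genes and are not read as a share. Abcc5, a pump that exports cyclic nucleotides, rose (31.52, 26.95 and 28.01 TPM with JQ1 against 11.31, 8.21 and 10.15 with DMSO, log2 change 1.46, adjusted p = 0.000169). Vasp, a cytoskeletal protein phosphorylated by cGMP-dependent kinase, fell (13.4 ± 2.49 TPM with JQ1 against 26.4 ± 0.675 TPM with DMSO, adjusted p = 0.000308). The calls of Cav1, Ddah1, Ddah2, Ass1, Akr1b3, Abcc5 and Vasp against DMSO were kept in all 23 alternatives. Against VPA, 6 of the 32 genes rose and 10 fell with JQ1, beside 33.2% of all genes, and these 7 genes and Pcbd2 were all called. Ddah2 was among those lower with JQ1 (31.3 ± 1.46 TPM with JQ1 against 51.9 ± 2.83 TPM with VPA, adjusted p = 0.00556).

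With the deacetylase inhibitors few genes of the list passed the threshold, as was so over all genes. With SAHA, 1 of 32 rose and 2 fell, 9.38% beside 5.19% of all genes. With VPA, 2 rose and 0 fell, 6.25% beside 4.27%. At limma's unadjusted p under 0.05 there were 9 genes of the list with SAHA and 8 with VPA. The share of all genes at that cut-off is not given here, so these counts are not read as a result about the list. A gene without a call is not shown to be unchanged. Ddah2 rose with both, to 44.2 ± 3.36 TPM with SAHA (log2 change 1.34, adjusted p = 0.00102) and 51.9 ± 2.83 with VPA (1.57, adjusted p = 0.000437), against 17.2 ± 4.41 in DMSO, and it kept both calls in all 23 alternatives. Between SAHA and VPA 0 of 32 genes passed limma's threshold, beside 0.452% of all genes. At an unadjusted p under 0.05 there were 8, again without a share over all genes.

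A further call with each of these drugs was named after its values were seen. Hspb6, a small heat shock protein phosphorylated by cyclic nucleotide-dependent kinases, fell with SAHA (2.92 ± 1.29 TPM with SAHA against 7.98 ± 2.03 TPM with DMSO, adjusted p = 0.0376), a call that ended without SAHA replicate 1 or 3, VPA replicate 1 or 2, or DMSO replicate 1 or 2 (up to 0.127, without DMSO replicate 2). Npr2 rose with VPA (3.61 ± 0.183 TPM with VPA against 1.04 ± 0.511 TPM with DMSO, adjusted p = 0.0448), a call that ended without any SAHA, VPA or DMSO replicate or JQ1 replicate 3 (up to 0.138, without DMSO replicate 3). Both calls also ended with the replicate number as a block, at an adjusted p of 0.06 for Hspb6 and 0.0527 for Npr2.

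**Figure D3:**
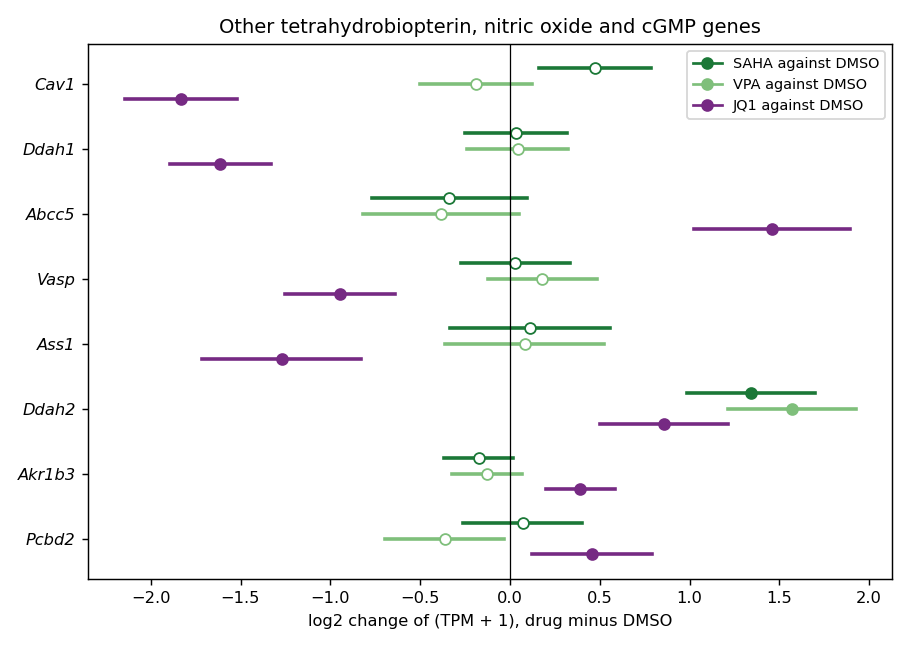
Log2 change of TPM + 1, drug minus DMSO, with 95% intervals, of 8 of the other pathway genes with the smallest adjusted p in any comparison: filled points passed the threshold and open points did not. With JQ1 all 8 passed, 4 higher and 4 lower, and Ddah2 alone of them passed with SAHA and VPA.

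Markers of smooth muscle and pericytes, the cells best known for soluble guanylate cyclase, PKG1 and Pde5a, were read beside these genes. Their summed level over 8 genes was 42.9 to 50.6 TPM with SAHA, 58.1 to 65.8 with VPA, 29.4 to 33.9 with JQ1 and 68.7 to 81.6 with DMSO, carried by Acta2 and Tagln. Rgs5 was listed at 0 in all 12 libraries and 4 of the 8 genes reached 1 TPM in any library. The 6 fibroblast markers summed to 1071 to 1198 TPM with SAHA, 957 to 1030 with VPA, 809 to 840 with JQ1 and 752 to 794 with DMSO. The higher sums with SAHA and VPA lay in Thy1, at 567 ± 81.5 TPM with SAHA and 494 ± 45.8 with VPA against 154 ± 7.20 with DMSO. Col1a2 was below DMSO in both, at 427 ± 10.1 TPM with SAHA and 374 ± 10.6 with VPA against 470 ± 19.6 with DMSO.

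The 13 blood endothelial markers summed to 196 to 215 TPM with SAHA, 129 to 164 with VPA, 61.9 to 66.7 with JQ1 and 102 to 122 with DMSO, nearly all of it Cd34. The 4 lymphatic endothelial markers, carried by Pdpn with Flt4 at 0 throughout, summed to 107 to 122 TPM with SAHA, 105 to 107 with VPA, 45.8 to 49.1 with JQ1 and 69.1 to 77.6 with DMSO. The means of Cd34 and Pdpn stood highest with SAHA and lowest with JQ1, as did those of Gchfr and Prkg2. The Pdpn libraries of SAHA and VPA overlapped. Egfl7, the other blood endothelial marker past the filter, did not follow this order. It averaged 7.33 ± 4.42 TPM with SAHA, 11.6 ± 3.49 with VPA, 11.3 ± 2.06 with JQ1 and 8.97 ± 3.26 with DMSO. The 5 epithelial markers, carried by Krt19 with Epcam at 0 throughout, summed to 21.9 to 25.4 TPM with SAHA, 25.3 to 35.1 with VPA, 30.4 to 40.3 with JQ1 and 10.8 to 12.9 with DMSO. The 4 neuronal markers, mostly Tubb3, summed to 13.9 to 20.2 TPM with SAHA, 16 to 21.7 with VPA, 11.3 to 14.0 with JQ1 and 8.35 to 10.5 with DMSO, and the 5 leukocyte markers to at most 2.21 TPM in any library. The part of these marker levels in the changes of the members was not tested.

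The profile of Gchfr over the 12 libraries was set against 7745 other tested genes with a mean of at least 5 TPM. Likeness was measured as the root mean square difference of log2(TPM + 1), each gene centred on its own mean, with libraries of a group sharing their treatment. The closest were Gsto2, a glutathione transferase (0.46), Pde4b, a phosphodiesterase of cAMP (0.461), Thbd, the thrombomodulin gene (0.47), Anxa6, an annexin (0.503), and Cavin2, a caveola coat protein (0.512). Pde4b averaged 17.3 ± 0.747 TPM with SAHA, 9.23 ± 2.39 with VPA, 1.83 ± 0.457 with JQ1 and 4.42 ± 1.29 with DMSO. Cavin2 averaged 97.7 ± 6.46 TPM with SAHA, 61.5 ± 1.76 with VPA, 11.7 ± 1.58 with JQ1 and 44.9 ± 3.70 with DMSO. All 5 had their lowest mean with JQ1 and their highest with SAHA, as Gchfr did, though the libraries of Anxa6 overlapped between SAHA (22.1 ± 4.37 TPM) and VPA (21.95 ± 2.85 TPM). These genes were picked for likeness to Gchfr over the same libraries, so the shared order follows from the choice.

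**Figure D4:**
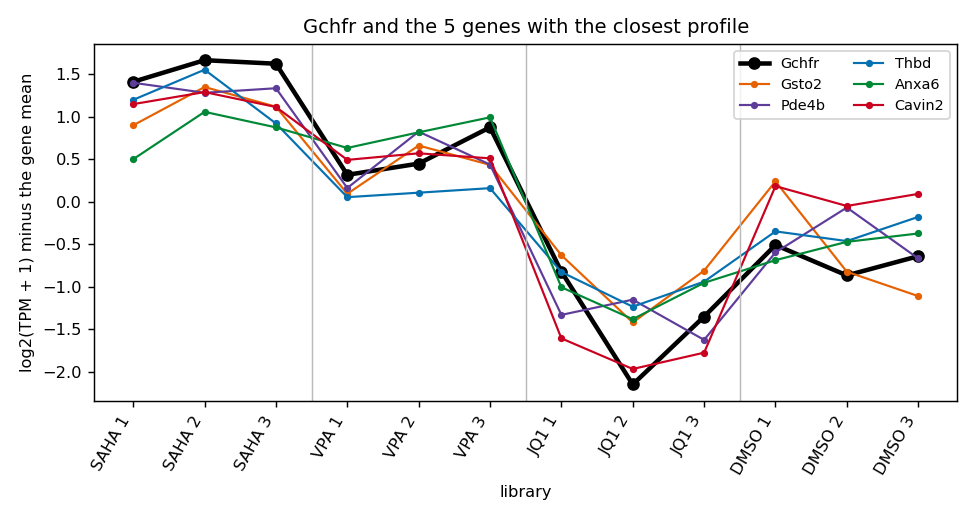
Log2(TPM + 1) minus the mean of each gene (vertical axis) in each of the 12 libraries (horizontal axis) for Gchfr, the thick black line, and the 5 genes with the closest profile. All 6 lines are high in the SAHA libraries and low in the JQ1 libraries, a likeness for which the 5 genes were chosen.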

How the data were processed

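Messenger RNA of 12 ISOS-1 libraries was counted from 3′ ends (QuantSeq FWD kits, per the labels' protocols). The values are TPM deposited by the authors. Tools named in the submitters' processing notes, without their roles, are bcl2fastq 2.17, RSEM, STAR and edgeR, with build mm39, and the column names carry RSEM's gene-level suffix. Every column of the matrix belongs to a labelled sample. TPM keeps no depth, so counting precision is unknown and no interval from counts is given. Whether the counting used strand is not given in the sources used here. The 3 sheets that repeat columns of the matrix were not used.

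Genes reaching 1 TPM in 3 or more libraries were fitted as log2(TPM + 1) with 4 group means over all 12 libraries (limma 3.58.1, R 4.3.3, 8 residual degrees of freedom, intensity trend, not robust). This scale understates changes of low genes. Tests were two-sided, p-values were adjusted by Benjamini and Hochberg over all 12836 tested genes, and an adjusted p under 0.05 counts as a change. The fit was also run on simulated data with normal noise, where changes were added only to well-expressed genes and only for SAHA against DMSO. That run does not cover calls of low genes such as Gch1 and Npr2. Values after ± are SDs of 3 libraries.

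The members and lists were chosen with earlier results of these data known. All 10 members are named, with up to 10 other pathway genes in order of adjusted p, and the 5 genes closest to Gchfr; some genes of the pathway list are counted but not reported here by name. The design planned a test of Prkg2 with JQ1, but it is given as a description because its size may have led to its choice. Promoters came from RefSeq on GRCm38.p6. Alternatives covered the pseudocount, filter, scaling, fit and each library left out. Figures were drawn with matplotlib 3.10.9.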

Additional observations from a re-analysis of the deposited data

How the results depend on the processing

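Of 43 results past the threshold (members and pathway genes, by comparison), 26 kept their direction and call under all alternatives run, and of 17 member results that did not pass, 12 stayed so with the same direction. Gchfr kept its direction in all 23 alternatives of each comparison. The call counts of members moved as follows. With SAHA (1 call) there was none (0) with a pseudocount of 0.1, without a filter, with quantile normalization, without the trend or with a replicate block, and 0 to 1 without single libraries. With VPA (1) there were 2 in a fit of the 2 groups alone and 1 to 2 without single libraries. With JQ1 (2) there was 1 with a pseudocount of 0.1, without a filter, in a fit of the 2 groups or with a replicate block, and 1 to 3 without single libraries. In JQ1 against VPA (2) there was 1 under quantile normalization, median-of-ratios scaling, removal of mitochondrial genes and Rn18s or no trend, and 0 to 2 without single libraries. Calls on the pathway list with SAHA (3) numbered 1 in a fit of the 2 groups, without the trend or with a replicate block, and 1 to 4 without single libraries. With VPA (2) they numbered 1 with a pseudocount of 0.1, no filter, a filter at 5 TPM, quantile normalization, median-of-ratios scaling, the 2 groups alone or a replicate block, and 1 to 2 without single libraries. In SAHA against VPA (0) there was 1 with a pseudocount of 5 and 0 to 1 without single libraries. Over all genes, SAHA (666) gave 369 in a fit of the 2 groups, 402 without the trend and 365 to 637 without single libraries. VPA (548) gave 243, 341 and 294 to 508 in the same order. SAHA against VPA (58) gave 19, 14 and 15 to 61 in that order, 94 with median-of-ratios scaling and 24 with a replicate block. Scaling moved the split of calls: median-of-ratios gave 270 higher and 293 lower with VPA (379 and 169 as deposited), 73 and 21 for SAHA against VPA (34 and 24) and 1927 and 2253 for JQ1 against VPA (1319 and 2945), where quantile normalization gave 2005 and 2217. For JQ1 against DMSO (1657 and 2690), quantile normalization gave 2068 and 2196 and median-of-ratios 2070 and 2290. The sign of changes near 0 turned without single libraries: Pts with SAHA reached 0.012 (log2) without DMSO replicate 1, from a lowest value of -0.43 without another library, Pts in SAHA against VPA ranged from -0.22 to 0.31, and Spr with JQ1 from -0.054 to 0.11. The cause was not tested. No pairing of the samples by replicate number was clear, though this check cannot exclude a weak one. Deviations from group means correlated at -0.0449 to 0.0789 for the 18 pairs with the same number and at -0.067 to 0.0558 for the other 36. Of the 12 libraries, 6 correlated best with their own number, a count not set against the one to be had without pairing. The replicate block ended no call of Gch1 with JQ1 or Qdpr with VPA. Among the calls against DMSO that it did end were Pts and Pcbd2 with JQ1, Prkg2 and Hspb6 with SAHA and Npr2 with VPA. Depth cannot be read from TPM, so a value listed at 0 is not shown to be absent.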
